A study of Rattus norvegicus with 46 samples.

Results

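The 10 genes described here belong to muscle atrophy, autophagy and myostatin signalling. They were followed in rat quadriceps during drug-driven weight loss and during food restriction to the same weight. They were the ubiquitin ligase genes Fbxo32, Trim63 and Fbxo30, the myostatin gene Mstn with its receptor gene Acvr2b, and the autophagy and lysosome genes Bnip3, Ctsl, Gabarapl1, Map1lc3b and Sqstm1. The genes were chosen by symbol, 10 of 32552 rows of a table of gene counts, and all 10 passed the filter on low counts among the 12471 genes tested in quadriceps. None of the 10 differed between any pair of treatments at an adjusted p under 0.05. Over all genes tested, 2.29% passed that threshold when weight matching was set against vehicle, 0.0321% when CagriSema was set against vehicle and 0.128% when CagriSema was set against weight matching, so 0 of 10 is near the share in the table as a whole.

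The animals were wild-type rats, described in the series as obese from their diet. A group received vehicle (7 quadriceps libraries), another had its food restricted so that its weight matched the drug group (8 libraries), and the last received CagriSema (8 libraries), the combination of the amylin analogue cagrilintide and the GLP-1 receptor agonist semaglutide. The labels give no dose, age, sex or strain, and the time of treatment is stated only for the liver samples of the same series. The labels number the libraries but do not say that each is a separate animal, so the p-values rest on the spread among libraries, which may be technical.

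Muscle loses protein when breakdown outpaces synthesis. Fbxo32 (atrogin-1) and Trim63 (MuRF1) are muscle ubiquitin ligases that tag proteins for the proteasome, and FoxO transcription factors, held in check by insulin and IGF signalling through Akt, switch them on in fasting, denervation and glucocorticoid excess. Autophagy removes organelles and protein aggregates in vesicles that fuse with lysosomes. Myostatin is a secreted growth inhibitor made by muscle, which binds activin type II receptors and signals through Smad2 and Smad3.

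Quadriceps libraries held 11462369 to 16525274 counts. Muscle-fibre markers, 9 of 12 with a row, summed to between 118310 and 207390 counts-per-million (CPM, on library sizes scaled by the TMM method) in each library. Hepatocyte markers summed to at most 42.6 CPM, in vehicle library 2. Their group medians were 0.549 CPM with vehicle, 0.274 CPM with weight matching and 1.90 CPM with CagriSema. Vehicle library 2 also had the highest sum of erythrocyte markers, 772 CPM, and the part of such RNA in its member values was not tested. Vehicle libraries 2 and 5 stood apart from the others on the second principal component, and vehicle library 8 had the highest mitochondrially encoded share of counts, 22.8%. Values without these libraries stand beside the results whose direction turned, or among the alternatives at the end. Over 77 pairs of libraries of the same group, chi-square per degree of freedom was at least 6.62, so no library was taken for a copy of another.

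Promoter sequence was available for 8 of the 10 genes in RefSeq (build GRCr8), and was searched over the 250 bases before the annotated start. A pair of short motifs was searched on both strands: GTAAACA, the core bound by FoxO factors, and the palindrome CACGTG, the E-box bound by TFEB and other helix-loop-helix factors. The motifs share no overlap. The FoxO core was found in 1 of the 8, Trim63, and in 3.21% of all 33469 promoters. The E-box was found in 1 of the 8, Bnip3, and in 5.59% of all promoters. Both are printed because they are the members of the set whose window holds a motif, written in the direction of transcription with the motif in capitals. The Trim63 window lies at chr5:151816986-151817235 on the plus strand, with the reverse complement of the FoxO core beginning 205 bases before the start. The Bnip3 window lies at chr1:203154963-203155212 on the minus strand, with the E-box beginning 99 bases before the start. A match describes letters only, and binding was not measured.
Trim63: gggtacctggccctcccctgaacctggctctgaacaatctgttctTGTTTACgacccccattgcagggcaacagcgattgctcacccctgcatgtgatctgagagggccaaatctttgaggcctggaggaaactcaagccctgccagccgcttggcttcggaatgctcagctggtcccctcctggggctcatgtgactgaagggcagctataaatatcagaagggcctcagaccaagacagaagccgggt
Bnip3: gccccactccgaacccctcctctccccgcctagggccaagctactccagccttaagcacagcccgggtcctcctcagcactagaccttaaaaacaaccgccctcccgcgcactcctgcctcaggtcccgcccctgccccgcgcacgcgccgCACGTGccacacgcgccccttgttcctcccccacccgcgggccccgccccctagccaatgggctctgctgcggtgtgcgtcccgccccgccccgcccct

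Fbxo32 had a lowest, median and highest level of 77.02, 147 and 261 CPM with vehicle, 97.8, 147 and 227 CPM with weight matching, and 88.0, 130 and 186 CPM with CagriSema. The vehicle group held both the lowest and the highest library of all 23, vehicle 2 and vehicle 8, and the ranges of all groups overlapped. Group means were 158 ± 55.1 (SD, n = 7), 155 ± 41.1 (n = 8) and 132 ± 31.6 CPM (n = 8). The log2 fold change was -0.03 ± 0.20 (SE) for weight matching against vehicle (edgeR quasi-likelihood test, adjusted p = 0.959), -0.26 ± 0.20 for CagriSema against vehicle (adjusted p = 0.673) and -0.23 ± 0.20 for CagriSema against weight matching (adjusted p = 0.823). The 95% intervals reached from -0.45 to 0.39, from -0.68 to 0.16 and from -0.64 to 0.17. All include 0, and changes between these limits are within the error. Without vehicle library 8, CagriSema against vehicle gave -0.10, and without weight-matched library 31, CagriSema against weight matching gave -0.13.

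Trim63, the MuRF1 gene whose product acts on thick-filament proteins, came nearest to a difference between the drug and the weight-matched group. Its lowest, median and highest levels were 187, 272 and 339 CPM with vehicle, 232, 282 and 368 CPM with weight matching, and 194, 237 and 283 CPM with CagriSema. Of the CagriSema libraries, 3 lay below every weight-matched library, and the other ranges overlapped. Between CagriSema and weight matching the log2 fold change was -0.33 ± 0.12 (SE; 95% interval -0.58 to -0.08), a fold of 0.794, with an unadjusted p of 0.0107 and an adjusted p of 0.506 by the edgeR quasi-likelihood test. This is the lowest p of the 30 made for the 10 genes in 3 comparisons, and it did not pass after adjustment. Against vehicle, Trim63 had a log2 fold change of 0.18 ± 0.12 with weight matching (adjusted p = 0.436) and -0.15 ± 0.12 with CagriSema (adjusted p = 0.703), values on either side of 0 with intervals that both include 0. Leaving out single libraries moved them to 0.12 without vehicle 6 and to -0.07 without vehicle 2, respectively.

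Fbxo30, also called MUSA1, is a ligase that BMP signalling holds down in muscle. It ranged from 13.8 to 21.4 CPM with vehicle (median 15.0), from 12.5 to 18.6 CPM with weight matching (median 14.9) and from 11.5 to 15.95 CPM with CagriSema (median 14.1). Of the CagriSema libraries, 4 lay below every vehicle library, and vehicle library 5 was the highest of all. The log2 fold change of CagriSema against vehicle was -0.21 ± 0.10 (SE), with an unadjusted p of 0.0521 and an adjusted p of 0.486 (edgeR), and it was -0.12 without vehicle library 5. Against vehicle, weight matching gave -0.10 ± 0.10 (adjusted p = 0.632), and CagriSema against weight matching gave -0.11 ± 0.10 (adjusted p = 0.847). All 3 ligase genes had a log2 fold change below 0 with CagriSema in both of its comparisons, with medians of -0.21 and -0.23, and none passed the test. Both comparisons use the same 8 CagriSema libraries, so they are not independent. In the wider ubiquitin ligase list followed below, 17 of 33 genes were above 0 with CagriSema against vehicle (median 0.0005). Against weight matching 6 of 33 were (median -0.06).

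**Figure D1:**
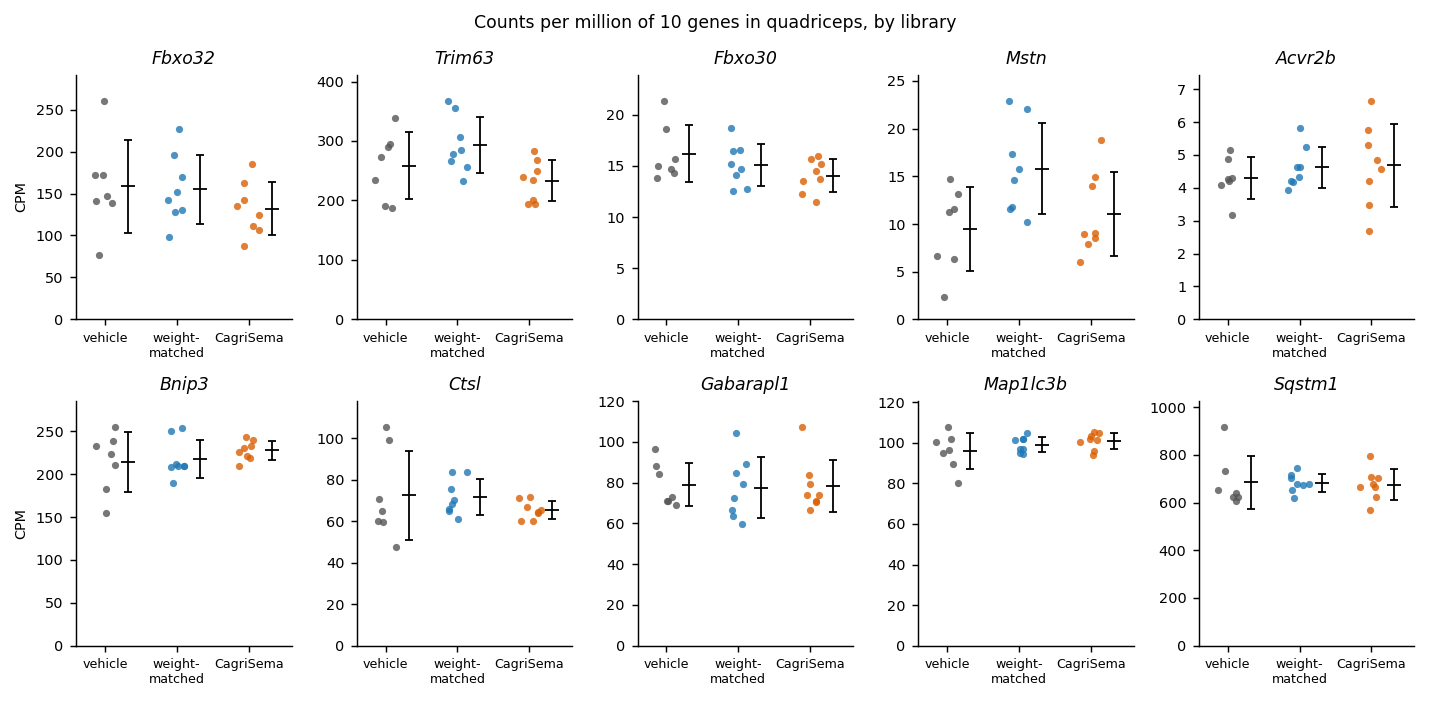
CPM (vertical axis of each panel, starting at 0) of the 10 genes in each quadriceps library, with vehicle (7 libraries, grey), weight-matched (8, blue) and CagriSema (8, orange) side by side. Bars give mean ± SD, and the groups overlap in every panel; Mstn is the panel where most weight-matched points sit high.

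Mstn had the widest difference of the set. Its lowest, median and highest levels were 2.39, 11.3 and 14.7 CPM with vehicle, 10.2, 15.2 and 22.9 CPM with weight matching, and 6.07, 8.99 and 18.8 CPM with CagriSema, from 28 to 328 counts per library. Of the 8 weight-matched libraries, 4 lay above every vehicle library, and vehicle library 8 was the lowest of all 23. Group means were 9.45 ± 4.42 CPM (SD, n = 7) with vehicle, 15.8 ± 4.76 CPM (n = 8) with weight matching and 11.03 ± 4.39 CPM (n = 8) with CagriSema. The log2 fold change of weight matching against vehicle was 0.73 ± 0.29 (SE; 95% interval 0.12 to 1.33), a fold of 1.65, with an unadjusted p of 0.0215 and an adjusted p of 0.174 (edgeR quasi-likelihood test). Over all genes tested in that comparison, 19.2% had an unadjusted p under 0.05. With vehicle libraries 2, 5 and 8 left out, the log2 fold change was 0.44 (adjusted p = 0.738).

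For CagriSema, Mstn had a log2 fold change of 0.21 ± 0.30 against vehicle (adjusted p = 0.833) and -0.51 ± 0.28 against weight matching (95% interval -1.09 to 0.07; adjusted p = 0.688). Of the CagriSema libraries, 5 lay below every weight-matched library. Without vehicle libraries 2, 5 and 8, the value against vehicle was -0.07, on the other side of 0, and leaving out 1 library moved it between 0.05 (vehicle 8) and 0.35 (vehicle 1). The drug group lay between the other 2 groups in mean, and no pair of groups passed the test.

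Acvr2b, one of the receptors to which myostatin and activins bind, had 37 to 92 counts per library. It ranged from 3.16 to 5.16 CPM with vehicle (median 4.26), from 3.94 to 5.83 CPM with weight matching (median 4.48) and from 2.67 to 6.65 CPM with CagriSema (median 4.71). The CagriSema group held both the lowest and the highest library. The log2 fold changes were 0.11 ± 0.15 (SE), 0.12 ± 0.15 and 0.02 ± 0.14 for weight matching and CagriSema against vehicle and for the drug against weight matching, with adjusted p of 0.743, 0.806 and 0.991 (edgeR). At these counts, counting alone gives a coefficient of variation of 12.4% to 13.1%, beside an observed 14.8% with vehicle, 13.6% with weight matching and 26.97% with CagriSema.

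Bnip3, an outer-membrane protein that marks mitochondria for autophagy, ranged from 154 to 255 CPM with vehicle (median 224), from 190 to 254 CPM with weight matching (median 209.6) and from 209 to 243 CPM with CagriSema (median 228). All CagriSema and weight-matched libraries lay within the vehicle range. The log2 fold changes were 0.03, 0.09 and 0.06 for weight matching and CagriSema against vehicle and for the drug against weight matching, each with an SE of 0.08 and with adjusted p of 0.9, 0.74 and 0.897 (edgeR). Without vehicle libraries 2 and 5, the values against vehicle were -0.0895 for weight matching and -0.0241 for CagriSema, on the other side of 0.

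Ctsl encodes cathepsin L, a lysosomal protease. It ranged from 47.4 to 105 CPM with vehicle (median 65.1), from 60.8 to 83.8 CPM with weight matching (median 69.3) and from 60.1 to 71.6 CPM with CagriSema (median 64.8). The vehicle range again enclosed both others, with vehicle libraries 2 and 5 at the top and vehicle library 8 at the bottom. The log2 fold change was -0.01 ± 0.12 (SE) with weight matching and -0.15 ± 0.12 with CagriSema against vehicle, with adjusted p of 0.967 and 0.712 (edgeR). Without vehicle libraries 2 and 5 these values were 0.25 and 0.12, on the other side of 0 and also not past the threshold. CagriSema against weight matching, which does not use the vehicle group's values for its difference, gave -0.13 ± 0.12 (adjusted p = 0.847).

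Gabarapl1 and Map1lc3b belong to the Atg8 family, whose proteins are joined to lipid on the growing autophagosome. Gabarapl1 ranged from 69.0 to 96.7 CPM with vehicle (median 73.2), from 59.9 to 104 CPM with weight matching (median 75.9) and from 66.5 to 107 CPM with CagriSema (median 74.0). CagriSema library 38 stood above the rest of its group, which ended at 83.7 CPM. The log2 fold changes were -0.03, -0.01 and 0.01 in the 3 comparisons, with SE of 0.11 and adjusted p of 0.926, 0.979 and 0.989 (edgeR). Map1lc3b, which encodes the autophagosome marker LC3B, was the steadiest member. It ranged from 80.1 to 108 CPM with vehicle (median 96.5), from 94.6 to 105 CPM with weight matching (median 99.2) and from 93.9 to 105 CPM with CagriSema (median 101). Its 95% intervals were the narrowest of the set: -0.06 to 0.16 for weight matching and -0.04 to 0.18 for CagriSema against vehicle, around log2 fold changes of 0.05 and 0.07.

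Sqstm1 encodes p62, a receptor that carries ubiquitin-tagged cargo into autophagosomes. It ranged from 608 to 916 CPM with vehicle (median 638), from 619 to 744 CPM with weight matching (median 678) and from 569 to 795 CPM with CagriSema (median 671). Vehicle library 2, at 916 CPM, stood above the other vehicle libraries, which ended at 734 CPM. Against vehicle, the log2 fold change was -0.0041 ± 0.08 (SE) with weight matching (adjusted p = 0.987) and -0.02 ± 0.08 with CagriSema (adjusted p = 0.95), and CagriSema against weight matching gave -0.02 ± 0.08 (adjusted p = 0.984; edgeR). The interval for weight matching ran from -0.17 to 0.16. Without vehicle libraries 2 and 5, the values against vehicle were 0.0839 and 0.069, above 0 and not past the threshold.

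Over the 10 genes, the median log2 fold change was 0.01 for weight matching against vehicle, -0.02 with CagriSema in place of weight matching, and -0.06 between these 2. Over all genes tested the medians were -0.01, -0.0079 and -0.0005. The number of members above 0 was 5, 4 and 4 of 10, beside 46.8%, 47.9% and 49.9% of all genes. Unadjusted p under 0.05 was reached by Mstn in the first comparison, by none in the second and by Trim63 in the third, where all genes gave 19.2%, 10.3% and 7.65%. The comparisons with vehicle share the same 7 libraries, and each of the other groups is likewise used in 2 comparisons. The values for a gene are therefore not independent between comparisons.

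**Figure D2:**
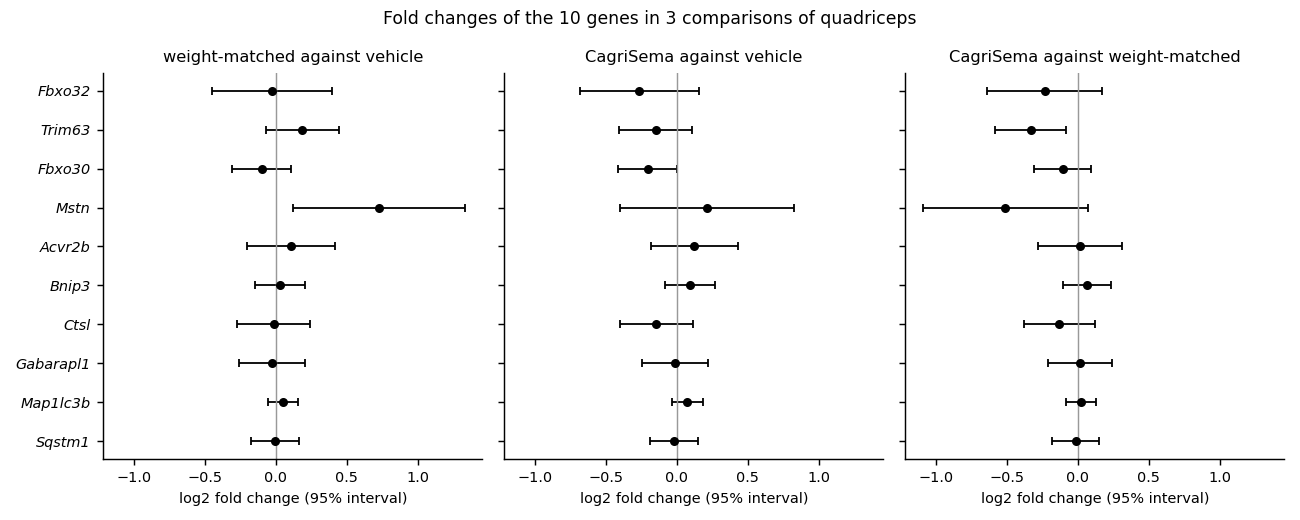
Log2 fold changes (horizontal axis) with 95% intervals of the 10 genes, 1 panel for each comparison of quadriceps. The intervals of Mstn for weight matching against vehicle (0.12 to 1.33) and of Trim63 for CagriSema against weight matching (-0.58 to -0.08) leave out 0 before adjustment; the intervals of Map1lc3b are the narrowest.

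The members varied by different amounts between libraries of the same group. The coefficient of variation with vehicle ran from 9.38% for Map1lc3b to 46.8% for Mstn, and was highest in the vehicle group for 8 of the 10 genes. The exceptions were Acvr2b, highest with CagriSema, and Gabarapl1, highest with weight matching. Ctsl had 29.8% with vehicle, 11.9% with weight matching and 6.67% with CagriSema, and Bnip3 had 16.3%, 10.2% and 5.01%. Counting alone gives 3.14% to 3.32% for Ctsl and 1.78% to 1.85% for Bnip3. Vehicle libraries 2, 5 and 8 held the extreme Ctsl values, and the difference in spread between groups was not tested.

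Whether members moved together between libraries of the same group was asked for all 45 pairs, on log2 CPM with group means removed. Of the 45, 6 had an unadjusted permutation p under 0.05 and 0 passed after Benjamini-Hochberg adjustment. With a prior count of 0.5 in place of 2, 1 pair passed, Trim63 and Fbxo30 (adjusted permutation p = 0.0495). The pair with the lowest p was Trim63 and Fbxo30, with Pearson's r = -0.67 and Spearman's rho = -0.61 over 23 libraries (permutation p = 0.00142, adjusted p = 0.0639), and r = -0.49 without the 2 libraries farthest from the median of Trim63. Within groups r was -0.90 with vehicle, -0.89 with weight matching and 0.02 with CagriSema. These values come from the same libraries that made this pair the lowest of the 45, and they were not tested. Fbxo32 and Trim63, often measured together as atrophy markers, gave r = -0.33 and rho = -0.36 (permutation p = 0.172 and 0.114, adjusted p = 0.403 and 0.361).

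Levels of slow-fibre markers differed between libraries and moved opposite to Mstn. The 8 slow-fibre markers, all with counts in every library, summed to 780 to 13264 CPM with vehicle (median 2484). They summed to 465 to 6440 CPM with weight matching (median 2180) and 2231 to 8406 CPM with CagriSema (median 5356). Their median log2 fold change was -0.98 for weight matching and -0.13 for CagriSema, each against vehicle. Between CagriSema and weight matching it was 0.85, and none of the 8 passed the test between groups. The fast-fibre markers, 7 of 9 with a row, summed to 73988 to 133990 CPM with vehicle (median 120390), 109050 to 166400 CPM with weight matching (median 136820) and 99364 to 130420 CPM with CagriSema (median 117070). With weight matching against vehicle their median log2 fold change was 0.34, and 1 of the 7 was called higher, the fast troponin I gene Tnni2, named after its values were seen (0.34 ± 0.09, SE; edgeR adjusted p = 0.0457). In the comparisons with CagriSema 0 of 7 were called. The part of the fast-fibre markers in the Mstn value was not tested. After the data had been seen, the members were set against the slow-fibre sum and the mitochondrially encoded share of counts. These were 20 relations in all, with group means removed. Mstn was lower where slow-fibre markers were higher, with r = -0.71 and rho = -0.77 over 23 libraries (adjusted permutation p = 0.00213 and 0.0013), and r = -0.80 without the 2 farthest libraries. Within groups r was -0.86 with vehicle, -0.42 with weight matching and -0.86 with CagriSema. Mstn was also lower where the mitochondrial share was higher (r = -0.79, rho = -0.73; adjusted permutation p = 0.0009 and 0.00233), with r = -0.73 without the 2 farthest libraries and -0.78, -0.81 and -0.84 within the groups. In bulk tissue, fewer fibres of a type and less RNA per fibre cannot be told apart.

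With the slow-fibre sum as a covariate, the Mstn log2 fold change was 0.59 ± 0.22 (SE) for weight matching against vehicle (edgeR adjusted p = 0.139), 0.45 for CagriSema against vehicle (adjusted p = 0.372) and -0.15 for CagriSema against weight matching (adjusted p = 1). Without the covariate these values were 0.73, 0.21 and -0.51, in the same order. The covariate was added after the data had been seen, and the part of fibre type in the group differences was not tested.

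Map1lc3b moved the other way. It was higher where the mitochondrial share was higher, with r = 0.88 and rho = 0.81 over 23 libraries (adjusted permutation p = 0.0002 and 0.0008; the unadjusted p for r, 1e-05, is the smallest that the permutations can give) and r = 0.78 without the 2 farthest libraries, vehicle 8 and vehicle 2. Within groups r was 0.94 with vehicle, 0.70 with weight matching and 0.85 with CagriSema. Mstn and Map1lc3b were the only members past the threshold for the mitochondrial share by r, and Mstn the only one for slow-fibre markers. Fbxo32 and slow-fibre markers passed by rho alone (r = 0.47, rho = 0.58; adjusted permutation p = 0.161 and 0.035).

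**Figure D3:**
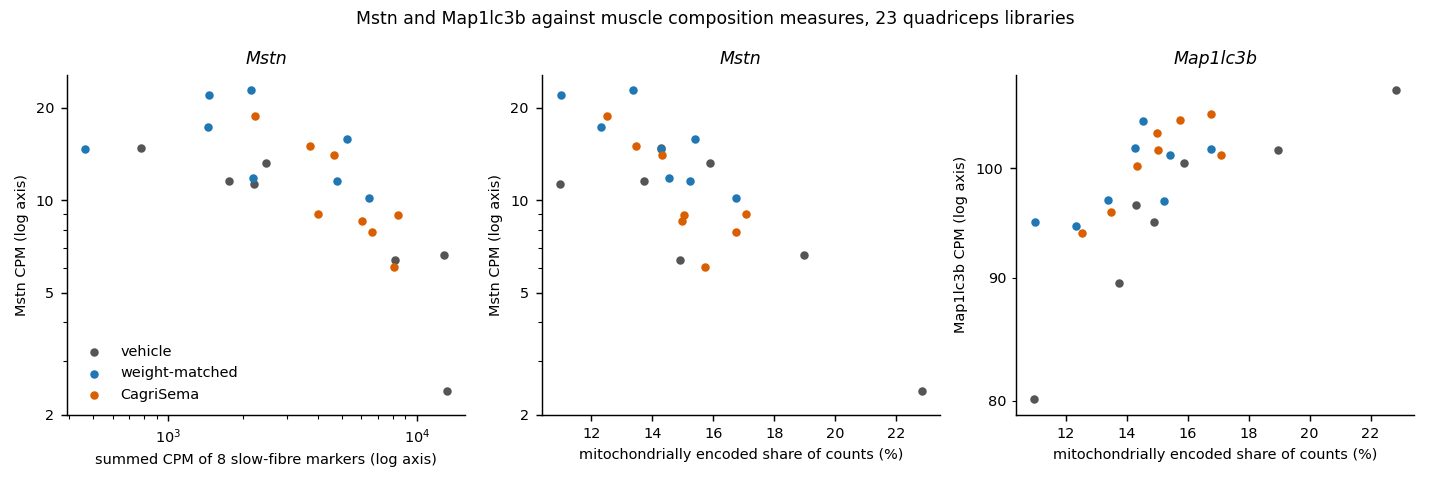
Levels of Mstn and Map1lc3b (vertical, CPM, log axes) against the summed CPM of 8 slow-fibre markers (log axis, left) or the mitochondrially encoded share of counts (percent, middle and right), 1 point per quadriceps library coloured by group. Mstn tends to be lower to the right in both of its panels, with vehicle library 8 lowest at 2.39 CPM, while Map1lc3b is 80.1 CPM in the leftmost library and 108 CPM in the rightmost.

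The rest of the pathways was followed in 8 lists, of which 221 genes were tested. Weight matching against vehicle gave 6 genes higher and 2 lower, CagriSema against vehicle gave 0, and CagriSema against weight matching gave 0, at an adjusted p under 0.05 by edgeR over all genes. The shares over all genes were 2.29%, 0.0321% and 0.128%, so 8 of 221 is near the share in the table as a whole. The 8 calls depend on the vehicle libraries: 1 was made without vehicle libraries 2 and 5, and 0 without 2, 5 and 8. Leaving out a single library gave 16 calls without vehicle 1, 3 without vehicle 2, 1 without vehicle 5, 4 without vehicle 8 or weight-matched 29, 5 without weight-matched 25, 2 without weight-matched 26 or 28, and 3 without weight-matched 30. The direction of each of the 8 was the same in all 33 alternatives.

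The FoxO and glucocorticoid list had 3 of 28 genes higher with weight matching and 0 lower. Glul, glutamine synthetase, ranged from 612 to 1270 CPM with vehicle (median 1026), from 1232 to 2444 CPM with weight matching (median 1591) and from 995 to 1517 CPM with CagriSema (median 1258). The log2 fold change with weight matching was 0.79 ± 0.14 (SE; edgeR adjusted p = 0.00975), and it was called in 31 of 33 alternatives. Fkbp5, a glucocorticoid-induced co-chaperone of the glucocorticoid receptor, ranged from 14.9 to 27.4 CPM with vehicle (median 20.1), from 25.3 to 90.1 CPM with weight matching (median 44.4) and from 18.9 to 60.0 CPM with CagriSema (median 34.4). Its log2 fold change with weight matching was 1.39 ± 0.28 (adjusted p = 0.0171), called in 29 of 33 alternatives. Sesn1, a stress-induced inhibitor of mTORC1, had 0.33 ± 0.08 (adjusted p = 0.0362), called in 23 of 33. The list as a whole had a median log2 fold change of 0.20, with 17 of 28 genes at an unadjusted p under 0.05, 13 higher and 4 lower. Over all genes tested, 2.29% were called and 19.2% had an unadjusted p under 0.05. The lists were chosen with earlier results of these data known, so these shares describe the list and do not test it. Fbxo32 and Trim63, which FoxO factors are known to switch on, had -0.03 and 0.18 in the same comparison. Between CagriSema and weight matching the list's median was -0.12, with 9 of 28 at an unadjusted p under 0.05, beside 7.65% of all genes, and 0 past adjustment.

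In the other lists, Ubr2, an N-end rule ubiquitin ligase, was higher with weight matching (log2 fold change 0.23 ± 0.06, edgeR adjusted p = 0.046), 1 of 33 tested in the ubiquitin ligase list. In the autophagy machinery, Atg2b, a lipid-transfer protein of the growing autophagosome, was higher (0.27 ± 0.07, adjusted p = 0.0454) and Wdr45b, a phosphoinositide-binding WIPI protein, was lower (-0.31 ± 0.08, adjusted p = 0.036), 2 of 35. Pik3r1, a regulatory subunit of PI3-kinase, was higher (0.46 ± 0.11, adjusted p = 0.0362), 1 of 25 in the IGF, Akt and mTOR list. Smad3, which carries the myostatin signal to the nucleus, was lower, with 141 ± 22.2 CPM (SD, n = 7) with vehicle and 109 ± 12.3 CPM (n = 8) with weight matching (-0.37 ± 0.09, adjusted p = 0.0346), 1 of 38 in the myostatin, activin and BMP list. Fibroblast markers, 7 of 7 with a row and Col1a2 under the filter, summed to 763 to 1711 CPM with vehicle and 408 to 805 CPM with weight matching, and 2 of the 6 tested were lower; their part in the Smad3 result was not tested. These 5 calls were each lost in some alternatives: of 33, Smad3 was called in 24, Wdr45b in 20, Pik3r1 in 19, and Atg2b and Ubr2 in 12 each. None passed of 17 mitophagy and selective receptor genes, 34 lysosome genes and 11 calpain and caspase genes, of which 5, 4 and 6 had an unadjusted p under 0.05.

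**Figure D4:**
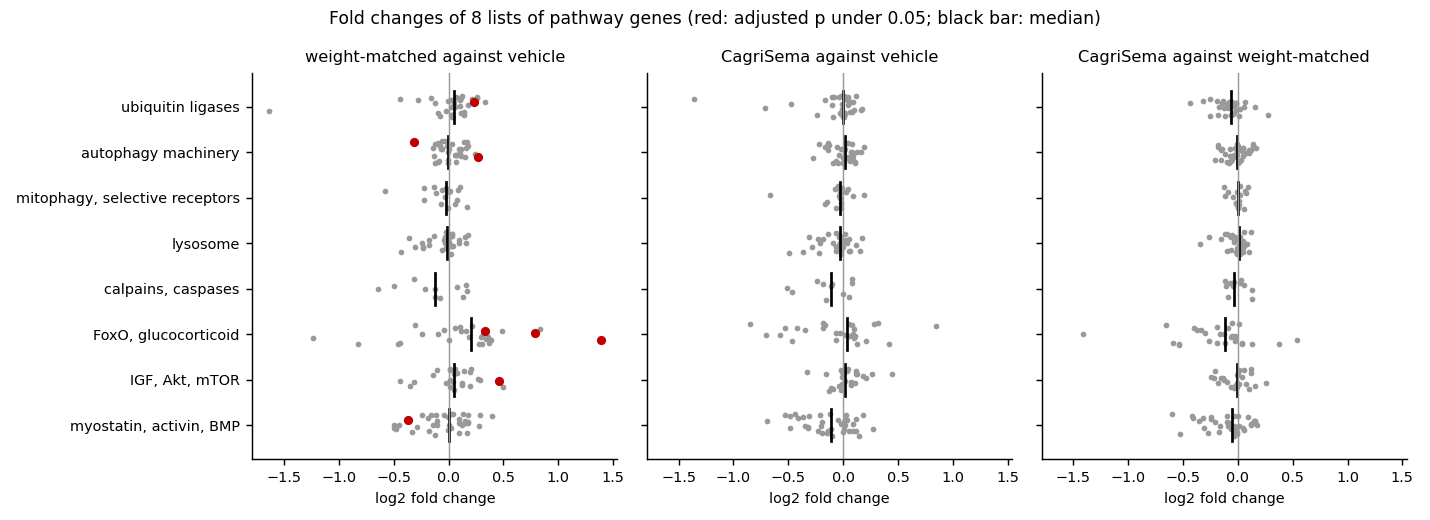
Log2 fold changes (horizontal axis) of the tested genes of 8 pathway lists (rows), 1 panel for each comparison; each point is a gene, red marks an adjusted p under 0.05 and the black bar is the list's median. Red points appear only with weight matching against vehicle, 8 in all, and the FoxO and glucocorticoid list has the rightmost median there, 0.20.

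The genes whose levels followed Trim63 and Mstn most closely were sought among 10740 genes by Pearson correlation of log2 CPM over the 23 quadriceps libraries, group differences included. For Trim63 they were Nars (r = 0.85), Upf3a (0.83), Slc25a25 (0.80), Eif3a (0.80) and Ddit4 (0.79). Nars encodes the asparaginyl-tRNA synthetase, Upf3a a factor of nonsense-mediated decay, Eif3a a subunit of a translation initiation factor, and Ddit4 (REDD1) a stress-induced inhibitor of mTORC1. Among the 5, Slc25a25, a mitochondrial carrier of ATP-Mg and phosphate, passed the test in 2 comparisons. The 5 were picked with group differences included, for the member with the lowest p, so these tests are not independent of the choice. Slc25a25 ranged from 24.0 to 107 CPM with vehicle (median 49.9) and from 89.9 to 188 CPM with weight matching (median 118). With CagriSema it ranged from 24.9 to 60.7 CPM (median 41.8). Its CagriSema and weight-matched ranges did not overlap, though the share of all genes that separate in this way was not counted. Its log2 fold change was 1.11 ± 0.25 (SE) for weight matching against vehicle (edgeR adjusted p = 0.0315) and -1.65 ± 0.25 for CagriSema against weight matching (adjusted p = 0.00986). The second was called in all 33 alternatives and the first in 24. The first was lost without vehicle library 5 and without weight-matched library 25, 26 or 30. It was also lost with no filter, with only the 2 groups compared, and with slow-fibre markers as a covariate. Leaving out vehicle libraries 2 and 5, or 2, 5 and 8, lost it too.

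For Mstn the 5 genes were Atp1b2 (r = 0.94), Actn3 (0.94), Acvr1b (0.92), Cib2 (0.92) and Myh4 (0.92). Actn3 and Myh4 are markers of fast fibres, and Acvr1b is the type I receptor ALK4 that pairs with activin type II receptors in myostatin signalling. None of the 5 passed the test in any comparison; with weight matching against vehicle, Actn3 had a log2 fold change of 0.69 ± 0.25 (SE; edgeR adjusted p = 0.126), Acvr1b 0.39 ± 0.15 (0.15) and Myh4 0.33 ± 0.13 (0.155), beside 0.73 ± 0.29 for Mstn. The 5 were picked with group differences included, so their direction in that comparison is not independent of that of Mstn. Of the 7 fast-fibre markers, 1 (Tnni2) was called higher with weight matching against vehicle, as given above.

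The same genes were set against liver as a description across tissues, with CPM on each library's own total count. No scaling between libraries or tissues was applied to these values. Mstn had no count in 22 of 23 liver libraries and Trim63 none in 16 of 23, and at the depth of the liver libraries such a 0 is compatible with up to 0.188 to 0.303 CPM (3 counts). Every quadriceps library was above every liver library for Fbxo32, Trim63, Fbxo30, Mstn and Bnip3. Ctsl was the reverse, at 46.8 to 112 CPM in quadriceps and 267 to 584 CPM in liver. The tissue ranges of Acvr2b, Gabarapl1, Map1lc3b and Sqstm1 overlapped. The share of all genes that separate the tissues in this way was not counted, so these orders cannot be read as particular to the members.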

How the data were processed

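The deposited values are whole-number gene counts, not normalized, in 1 table of the series. Extraction was by RNeasy Minikit and library preparation by a Twist UMI system, per the labels' protocols. The submitters' processing notes list fastp (0.23.1) and STAR (2.5.2b). For the genome build, annotation, counting program and use of molecular identifiers, the entry is: not given in the sources used here. Library titles gave the columns, and 1 count column with no such title was not used.

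The 23 quadriceps libraries were fitted with edgeR 4.0.16 in R 4.3.3 (filterByExpr, TMM, robust quasi-likelihood F tests, 3 groups sharing 1 spread), with Benjamini-Hochberg adjustment over 12471 genes and a threshold of 0.05. DESeq2 1.42.0 and limma 3.58.1 (voom) were alternatives. SEs and 95% intervals come from the same fits. CPM use TMM-scaled library sizes, except that those set against liver use each library's own total count. Correlations use log2 CPM with a prior count of 2 and 100000 permutations. A count of 0 was taken to allow 3 counts, and such limits cover counting error only. The fits were tested on simulated counts.

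The genes and lists were chosen with earlier results of these data known. Named were the 10 members, up to 3 genes past the threshold with the lowest p per list and comparison, and the 5 genes most like Trim63 (the member with the lowest p) and like Mstn, with a mean of at least 1 CPM. Of the list genes, 4 had no matched row and 6 were under the filter; they were not analysed here. Promoters are from RefSeq GRCr8, and Fbxo32 and Mstn had no entry.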

Additional observations from a re-analysis of the deposited data

Results flagged for a closer look

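In the CagriSema group, Gabarapl1 had 107.26 CPM in library 38, while the other 7 libraries lay between 66.5 and 83.7 CPM; the gap to the next library took 57.8% of the group's range. In the vehicle group, Sqstm1 had 916.44 CPM in library 2, while the other 6 lay between 608 and 734 CPM, with a gap of 59.2% of the range. These are the groups past Dixon's 95% limit among 30 groups examined, and chance puts about 1 in 20 groups past it.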

How the results depend on the processing

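Over 33 alternatives (23 of them leaving out 1 library each), 0 of 990 values for the 10 members passed the threshold. Of the 30 member fold changes, 16 kept their sign in every alternative and 14 did not, the largest of these being 0.21 on the log2 scale for Mstn with CagriSema against vehicle. The cause of these changes was not tested.

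The count of genes called moved as follows. For weight matching against vehicle (285) it was 131 with no filter, 693 with DESeq2, 7 with only the 2 groups compared, 19 without vehicle libraries 2 and 5, 5 without 2, 5 and 8, 678 with the mitochondrial share as a covariate, and 46 to 645 leaving out 1 library. For CagriSema against vehicle (4) it was 38 with DESeq2, 0 with limma-voom (1287 unadjusted p under 0.05 in edgeR), 2 with only the 2 groups compared, 0 without vehicle 2 and 5 and without 2, 5 and 8, 33 with the mitochondrial share, 10 with slow-fibre markers as a covariate, and 0 to 7 leaving out 1 library. For CagriSema against weight matching (16) it was 7 with no filter, 34 with DESeq2, 7 with slow-fibre markers, and 2 to 17 leaving out 1 library. Of the pathway genes with weight matching (8), it was 4 with no filter, 18 with DESeq2, 0 with only the 2 groups compared, 1 and 0 without vehicle 2 and 5 and without 2, 5 and 8, 22 with the mitochondrial share, and 1 to 16 leaving out 1 library. With a prior count of 0.5, 1 pair of members (Trim63 and Fbxo30, adjusted p = 0.0495) was called as correlated.

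Member values that crossed 0 were all short of the threshold. For weight matching against vehicle, Sqstm1 was 0.0046 with no filter, 0.0023 with DESeq2 and 0.0087 with limma-voom, and Ctsl was 0.0285 with limma-voom. Without vehicle 2 and 5, Bnip3 was -0.0895, Ctsl 0.25 and Sqstm1 0.0839. Without 2, 5 and 8 they were -0.082, 0.17 and 0.0691. With the mitochondrial share, Fbxo32 was 0.16 and Gabarapl1 0.0224. With slow-fibre markers, Fbxo32 was 0.0913, Ctsl 0.002 and Gabarapl1 0.0419. For CagriSema against vehicle, without vehicle 2 and 5, Bnip3 was -0.0241, Ctsl 0.12 and Sqstm1 0.069. Without 2, 5 and 8, Mstn was -0.0692, Bnip3 -0.0176, Ctsl 0.0363, Gabarapl1 0.005 and Sqstm1 0.0527. Gabarapl1 was 0.0098 with the mitochondrial share and Sqstm1 0.0053 with slow-fibre markers. For CagriSema against weight matching, Acvr2b was -0.0286 with limma-voom. With the mitochondrial share, Gabarapl1 was -0.0126, Map1lc3b -0.0069 and Sqstm1 0.0126, and with slow-fibre markers -0.0969, -0.0142 and 0.0429.

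Leaving out 1 library, values ran across 0 as follows. For weight matching against vehicle, Fbxo32 ran from -0.15 to 0.13, Bnip3 from -0.0426 to 0.0737, Ctsl from -0.0944 to 0.0929, Gabarapl1 from -0.10 to 0.0278 and Sqstm1 from -0.0306 to 0.0752. For CagriSema against vehicle, Gabarapl1 ran from -0.0907 to 0.0415 and Sqstm1 from -0.0569 to 0.0621. For CagriSema against weight matching, Acvr2b ran from -0.0699 to 0.10, Gabarapl1 from -0.0637 to 0.0872 and Sqstm1 from -0.0526 to 0.0176.

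No paired analysis was possible because the 3 quadriceps groups share no library numbers. Depth limits Acvr2b most, with 37 to 92 counts per library.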
